A study of Homo sapiens with 7 samples.

Results

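The regions described here are the stretches of DNA inside protein-coding genes at which ATF4 was found more than once. ATF4 peaks of 4 chromatin immunoprecipitation sequencing (ChIP-seq) lists were merged where they overlapped by at least 1 bp, and a region was kept when at least 2 of the 4 lists had a peak in it and its centre lay within the annotated span of a protein-coding gene. The rule kept 222 of 5091 merged ATF4 regions. Another 349 regions had peaks in at least 2 lists but lay outside such genes, and 2129 regions inside genes had a peak in 1 list alone. All samples came from DLD-1, an established colon adenocarcinoma line, that carried a retrovirus for MycER, a MYC protein that 4-hydroxytamoxifen (4-OHT) switches on. ATF4 was profiled in 2 libraries of cells with MYC activated by 500 nM 4-OHT for 8 hr (activated) and in 2 libraries of control cells (vehicle, per the protocol, which names vehicle or 4-OHT). MYC was profiled in 2 libraries of activated cells, and 1 IgG sample was not analysed here as a list of its own. The control cells carried MycER too, and no group had 4-OHT without MycER, so effects of the drug and of MYC activation cannot be told apart.

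The activated ATF4 libraries held 24.95 and 49.75 M tags in replicates 1 and 2, against 22.4 and 50.3 M in the control libraries. Depth therefore went with the replicate number and not with the treatment. The strength of a peak is given as tags, which are reads under the peak that the authors scaled to a library of 10 M. The lowest value listed was 3.21 and 2.81 tags for activated cells, against 4.46 and 2.98 tags for control cells, in replicates 1 and 2. A region without a peak in a list is therefore not shown to be empty in that library. Coordinates are hg38, as in the lists.

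ATF4 is a basic leucine zipper transcription factor whose translation rises when the kinases of the integrated stress response phosphorylate eIF2alpha. It pairs with partners such as C/EBP proteins on a composite site, the C/EBP-ATF response element, and is known for switching on amino acid import, amino acid synthesis and the enzymes that charge tRNAs. MYC drives growth and protein synthesis, which draw on the same supplies.

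A few of the regions lay so close to a gene start that their sequence could be read from the RefSeq promoter windows of GRCh38.p14, which run from 250 bases before to 50 bases after a start. Of the 222 regions, 9 overlapped such a window of a protein-coding gene, and the windows of 7 of them held TGATGNAAN, the composite C/EBP-ATF element, searched on both strands. Among all 22199 windows of protein-coding genes 2.69% held it. The stretches below carry the element in capitals and are shown because each sits under an ATF4 region of a gene of amino acid supply or tRNA loading. Each runs 5′ to 3′ on the strand of the named gene, and an element on the opposite strand appears as its reverse complement.
ASNS (minus strand, chr7:97872448-97872496): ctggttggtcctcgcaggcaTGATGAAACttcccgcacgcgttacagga
SLC1A5 (minus strand, chr19:46784883-46784931): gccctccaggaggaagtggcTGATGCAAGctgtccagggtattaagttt
SLC3A2 (plus strand, chr11:62881719-62881748): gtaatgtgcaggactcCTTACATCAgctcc
S100PBP, which shares its start area with YARS1 (plus strand, chr1:32817327-32817375): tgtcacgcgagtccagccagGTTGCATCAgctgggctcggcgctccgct
MARS1 (plus strand, chr12:57488043-57488091): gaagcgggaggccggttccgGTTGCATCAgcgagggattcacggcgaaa
NARS1 (minus strand, chr18:57621807-57621842): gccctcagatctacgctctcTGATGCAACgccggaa
TARS1 (plus strand, chr5:33440946-33440994): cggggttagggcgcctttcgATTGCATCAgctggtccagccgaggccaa
The element lay within the ATF4 region in all 7 cases, 2 to 42 bp from the region's centre. It was closest at MARS1 (2 bp), S100PBP and YARS1 (4 bp), ASNS and SLC3A2 (7 bp each), and farther at SLC1A5 (16 bp), NARS1 (20 bp) and TARS1 (42 bp). Of the other motifs searched in the windows of the same 9 regions, the AP-1 site TGANTCA occurred at 1 region (SLC3A2, not overlapping the composite element), against 6.15% of all windows. The cAMP response element TGACGTCA and the E-box CACGTG, a MYC site, occurred at 0 of the 9, against 2.26% and 8.34% of all windows. A match describes letters in a window and is not evidence of binding by a given factor. No sequence was read at regions away from these windows.

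The combination of lists that held a peak differed widely among the regions. The most common was a peak in both activated and neither control list, found at 71 regions (32.0%), against 26.6% of all 571 repeat-called ATF4 regions. A peak in all 4 lists was found at 51 (23.0%, against 18.4% of all). Peaks in both activated lists and 1 control list were found at 43 regions, of which 33 had the peak of control replicate 2 and 10 that of control replicate 1, the shallower library. Both control lists without an activated list held peaks at 5 regions (2.25%, against 2.98% of all). The 48 regions with 1 activated and 1 control list included 21 seen only in the 2 replicate 2 lists and 5 seen only in the 2 replicate 1 lists. In all, 183 and 199 of the regions had a peak in activated replicates 1 and 2, against 85 and 126 in control replicates 1 and 2. That is 191 ± 11.3 in activated and 105.5 ± 29.0 in control cells (SD, n = 2). The regions made up 14.4% and 8.92% of the activated lists and 9.28% and 7.98% of the control lists, in the order of the replicates. The number of regions that met the rule was 134 without activated replicate 1 and 120 without activated replicate 2, against 202 without control replicate 1 and 184 without control replicate 2.

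**Figure D1:**
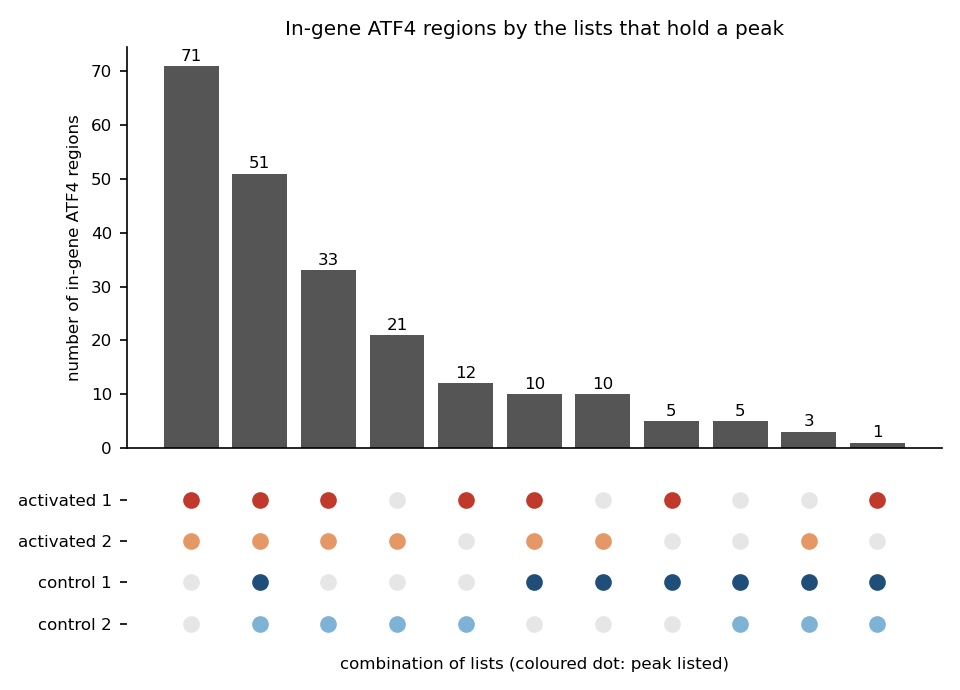
Number of in-gene ATF4 regions (bars, vertical axis) for each combination of the 4 lists with a peak; a coloured dot under a bar marks a list with a peak. The 2 tallest bars are 71 regions with peaks in both activated lists only and 51 with peaks in all 4.

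Regions at the border of the rule were weak. Regions inside genes that 1 list alone called had a median of 3.98 tags and a median 4.16-fold over the background library, against 6.83 tags and 9.21-fold for the highest peak of the 222 regions. Folds over background are the authors' own values per peak. The median focus ratio, the share of a peak's tags on the expected side of its centre, was 0.867 for the 222 regions and 0.742 for those called once. Presence in more than 1 list chose the regions, so these gaps are a description and carry no test.

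The strongest of the regions with a peak in all 4 lists lay in genes of amino acid transport and in genes with no such role. SLC43A1, which carries branched-chain and other neutral amino acids, had 39.7 and 32.6 tags in activated replicates 1 and 2, against 29.0 and 16.3 in control replicates 1 and 2 (chr11:57493586-57493798). TBC1D16, a Rab GTPase-activating protein, had 33.7 and 34.4 tags in activated cells, against 21.4 and 17.1 in control cells (chr17:79993510-79993728). SLC7A5, the light chain of the main large neutral amino acid exchanger, had 33.3 and 28.3 tags in activated cells, against 23.7 and 15.9 in control cells (chr16:87853633-87853849). In each of these 3 genes both activated libraries lay above both control libraries. The region inside NRL, a retinal transcription factor, had 23.7 and 18.3 tags in activated cells, against 12.5 and 11.5 in control cells, and its centre lay 302 bp before the start of PCK2, the mitochondrial enzyme that makes phosphoenolpyruvate. GSE1 had 18.8 and 19.7 tags in activated cells, against 12.1 and 9.34 in control cells. KIF21B, a kinesin motor, had 16.4 and 20.7 tags in activated cells, against 12.1 and 9.14 in control cells. The groups did not overlap in NRL, GSE1 or KIF21B either. EIF4EBP1, a repressor of cap-dependent translation, had 12.0 and 19.7 tags in activated cells, against 10.7 and 10.1 in control cells, so its groups were apart by little.

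Whether MYC activation changes the amount of ATF4 at these sites was tested where every list had a peak. The test was limma with a trend on log2(tags + 1), adjusted by the Benjamini-Hochberg method over all 105 such ATF4 regions, of which 51 lay inside genes. Regions without a peak in 1 or more lists, among them all activated-only ones, did not enter it. ATF4 rose at 21 of the 51 in-gene regions and fell at 0 (limma adjusted p under 0.05), against 37.1% higher and 0% lower of all 105. At an unadjusted limma p under 0.05, 30 of the 51 were higher and 0 lower, against 57 and 0 of all 105. By edgeR's quasi-likelihood test on whole tags (adjusted p under 0.05), 27 of the 51 were higher and 0 lower. Of all 105 regions, edgeR called 52 higher and 0 lower. The median log2 change was 0.60 over the 51 regions and 0.54 over the 105, on the log2(tags + 1) scale, which understates changes of weak regions. Both activated libraries lay above both control libraries at 37 of the 51 regions, against 73.3% of all 105. The reverse held at 2, TPST2 and SPATA9, against 2.86% of all.

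The calls changed with the libraries used and with the scaling. Leaving out activated replicate 1, activated replicate 2, control replicate 1 or control replicate 2 left 0 of the 51 past the threshold by limma, with 22, 13, 21 and 10 higher at an unadjusted p under 0.05. With each library centred on its median over the 105 regions, which put the median change of all at -0.11 in place of 0.54, 0 regions were higher (2 unadjusted) and 5 lower (10 unadjusted). Those 5 were ARHGAP18, MYC, SPATA9, LOC112268044 and TPST2. Peaks were 170 and 204 bp wide in activated replicates 1 and 2 and 184 and 212 bp wide in the control lists, and per 200 bp of width, a setting chosen after seeing the data, 11 regions passed.

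Among the 21 regions that rose, the largest change was in TEK, the angiopoietin receptor known from blood vessel endothelium. It had 16.8 and 18.3 tags in activated replicates 1 and 2, against 6.25 and 7.55 in control replicates 1 and 2 (chr9:27194394-27194644). Its lowest activated value was above its highest control value, and the log2 change was 1.24 ± 0.29 (SE, limma adjusted p = 0.00309). ASNS, which makes asparagine, had 14.0 and 15.3 tags in activated cells, against 5.80 and 6.36 in control cells, at the region that holds the element shown above (chr7:97872341-97872590). Its log2 change was 1.14 ± 0.29 (SE, limma adjusted p = 0.00601). FNDC3B, a fibronectin-domain protein, had 15.6 and 19.7 tags in activated cells, against 10.3 and 5.57 in control cells, with a change of 1.11 on the log2 scale, the mean of 0.55 in replicate 1 and 1.66 in replicate 2.

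The next changes were close in size. PGPEP1, a peptidase that removes pyroglutamate, averaged 13.55 ± 3.89 tags in activated and 6.28 ± 1.85 in control cells (SD, n = 2 each). ATXN1, the protein mutated in a spinocerebellar ataxia, averaged 14.95 ± 1.48 and 7.10 ± 1.33 tags, activated and control. EEIG1 averaged 13.15 ± 0.495 tags in activated and 6.26 ± 1.27 in control cells. B4GALT5, a galactosyltransferase of glycolipid synthesis, averaged 13.65 ± 0.0707 tags in activated and 6.58 ± 1.43 in control cells. Their log2 changes lay between 0.96 and 1.00. PRKCH, a protein kinase C, changed by 0.84, TBC1D16 by 0.80 and GSE1 by 0.80. Both replicate numbers gave a higher activated value at each of the 21 regions. The median log2 differences were 0.63 in replicate 1 and 1.02 in replicate 2. The test chose these 21 regions from the same values, so their agreement is a description. Of all 51 in-gene regions, 40 were higher and 2 lower in both numbers, with median differences of 0.41 and 0.79. Of all 105 regions these were 82 and 5, with medians of 0.37 and 0.74. The smallest change that passed was 0.54, at a region in the long annotated span of RANBP2, a nuclear pore protein with near-identical copies in the genome, 407140 bp from its start. The nearest listed start was that of SH3RF3, another gene, and the region's centre lay 2583 bp before it.

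**Figure D2:**
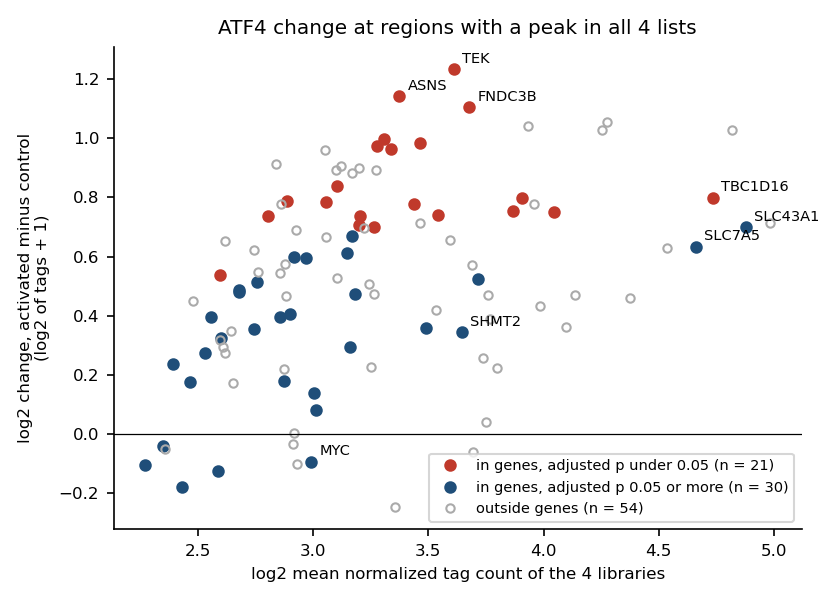
Log2 change of ATF4 (activated minus control, vertical axis) against the log2 mean tags of the 4 libraries (horizontal axis) at the 105 regions found in all 4 lists. The 21 in-gene regions that passed (red) lie between 0.54 and 1.24, and the grey regions outside genes have a median of 0.52.

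Of the 30 in-gene regions that did not pass by limma, 25 had a higher and 5 a lower mean after activation. SLC43A1 and SLC7A5, the strongest carriers, were among them, with log2 changes of 0.70 ± 0.32 (SE, limma adjusted p = 0.0721) and 0.63 ± 0.31 (SE, limma adjusted p = 0.0865). By edgeR's quasi-likelihood test SLC43A1 passed (edgeR adjusted p = 0.0459) and SLC7A5 did not (edgeR adjusted p = 0.0565). The control replicates of both lay far apart, at 29.0 and 16.3 and at 23.7 and 15.9 tags. Limma draws each region's spread toward that of regions with like tags, so these SE values are not set by their own replicates alone. TBC1D16, with closer control replicates (21.4 and 17.1 tags), had an SE of 0.32 too. EIF4EBP1 had a log2 change of 0.53 (limma adjusted p = 0.125, edgeR adjusted p = 0.046). The region in the MYC gene itself had 7.22 and 8.04 tags in activated replicates 1 and 2, against 9.38 and 7.16 in control replicates 1 and 2 (chr8:127740476-127740789), so its groups overlapped. Its log2 change was -0.09 (limma adjusted p = 0.796). Its highest fold over background was 2.39, against a median of 9.21 for the 222 regions, and the cells of all 4 libraries carried a retrovirus for MycER. Whether tags of that insert take part in this region was not tested.

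Genes of the amino acid and stress lists were described next, and the share of all 20056 protein-coding genes that hold a repeat-called region, 1.08% (217 genes), is the background for each count. The lists were chosen with earlier results of these data known. Amino acid carriers had a region in 6 of 15 genes (SLC43A1, SLC7A5, SLC1A5, SLC3A2, SLC38A1 and SLC38A2), and 3 more had a region called once. SLC1A5, a glutamine carrier, had 11.2 and 16.7 tags in activated replicates 1 and 2, against 6.25 and 9.14 in control replicates 1 and 2, with a log2 change of 0.78 ± 0.29 (SE, limma adjusted p = 0.0315). It was the only carrier of the 3 with a peak in every list that passed by limma. SLC3A2, the heavy chain that partners SLC7A5, had 6.81 and 10.4 tags in activated cells, against 9.82 in control replicate 1 and no peak in control replicate 2. SLC38A2, a small neutral amino acid carrier, had 4.81 and 8.84 tags in activated cells, against 3.98 in control replicate 2 only. SLC38A1, its glutamine-carrying relative, had 6.01 and 6.03 tags in activated cells and no control peak.

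Enzymes of amino acid, serine and folate metabolism had a region in 6 of 20 genes. ASNS and SHMT2 had peaks in every list, and ASNS rose by the test. SHMT2, the mitochondrial enzyme that splits serine for one-carbon units, had 14.8 and 13.1 tags in activated replicates 1 and 2, against 13.8 and 8.35 in control replicates 1 and 2, and these overlap (log2 change 0.34, limma adjusted p = 0.302). PHGDH, which starts serine synthesis, had 8.02 and 11.9 tags in activated cells, against 6.96 in control replicate 2 only. PSPH, which ends serine synthesis, was listed in replicate 2 alone, with 5.02 tags in activated and 4.57 in control cells. MTHFD2, a mitochondrial folate enzyme, held 2 regions, both listed only after activation, with 4.41 and 9.44 tags at the stronger and 4.81 and 5.83 at the other. ASS1, which makes argininosuccinate, had 8.42 and 7.64 tags in activated cells and no control peak. None of these 4 genes had a peak in every list, so the change at them was not tested.

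Cytosolic aminoacyl-tRNA synthetases had a region in 6 of 20 genes, and 4 more had a region called once. None had a peak in all 4 lists. SARS1 had 9.85 tags in activated replicate 2 and 6.76 in control replicate 2. TARS1 had 7.84 and 3.78, and EPRS1 had 5.83 and 3.78, in activated and control replicate 2. These 3 genes were listed in the deeper replicate 2 libraries alone, where the activated value was the higher in each. GARS1 had 6.81 and 10.2 tags in activated replicates 1 and 2, against 5.37 in control replicate 2 only. YARS1 held 2 regions, the stronger of which had 6.81 and 9.44 tags in activated cells, against 4.91 in control replicate 1 only, and the other 5.21 and 7.43 in activated cells without a control peak. NARS1 had 4.81 and 6.83 tags in activated cells and no control peak. The region at the start of MARS1 is counted under ARHGAP9, the neighbouring gene whose span it lies in, and had 7.22 and 8.04 tags in activated cells with no control peak.

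Stress response regulators had a region in 3 of 24 genes, and 5 more, among them ATF3 and TRIB3, had a region called once. EIF4EBP1 is given above. CEBPB, a partner of ATF4, had 7.22 and 12.7 tags in activated replicates 1 and 2, against 5.96 in control replicate 2 only. XBP1, a factor of the unfolded protein response, had 6.41 and 7.23 tags in activated cells, against 4.91 and 4.97 in control cells. Its groups did not overlap, and it did not pass (log2 change 0.39, limma adjusted p = 0.125). Autophagy and lysosome genes had 0 of 16, colon epithelial genes 0 of 10, and genes typical of blood, endothelium, neurons or fibroblasts 1 of 15, which was TEK.

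**Figure D3:**
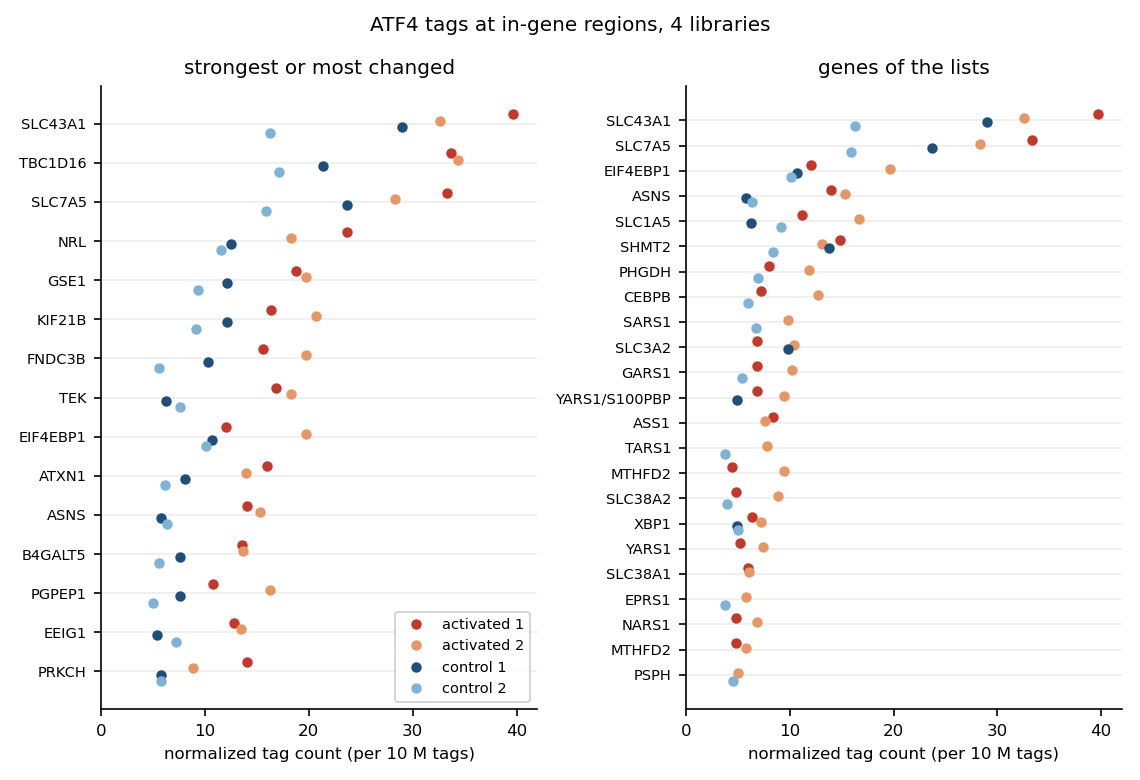
Normalized tag counts per 10 M tags (horizontal axis) in each of the 4 ATF4 libraries at in-gene regions, with 1 row per region; a missing dot means that the list has no peak. Left, the regions with the most tags or the largest change, where the activated dots lie to the right of the control dots in every row. Right, the regions of the amino acid, synthetase and stress lists, many of which lack 1 or both control dots.

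Regions listed only after activation were weaker than those in every list. Peak calling in the control lists set these classes, so this gap is a description. The 71 activated-only regions had mean activated tags from 4.02 to 9.52 with a median of 5.32, against a median of 10.7 activated tags at the 51 regions of all 4 lists. Of the 71, 13 had fewer tags in activated replicate 1 than the lowest peak listed in control replicate 1. Both activated values were at or above that lowest value (4.46 tags) at 46 of the 71. When peaks below it were dropped from every list, 59 regions were activated-only, a number that can include regions whose control peaks were dropped. The strongest was in MAST4, a kinase, with 10.0 and 9.04 tags in activated replicates 1 and 2. BAALC had 7.22 and 9.04 tags, OSBP2, an oxysterol-binding protein, had 9.22 and 7.03, and MB21D2 had 5.21 and 10.9. None of these 4 genes is in the amino acid or stress lists. Further regions lay in ASS1 and in DEPTOR, an inhibitor of mTOR, with 6.41 and 9.44 tags. ARHGAP9 at the MARS1 start, FBXO42, a ubiquitin ligase subunit, with 9.22 and 5.43 tags, and TXNDC12, a thioredoxin of the endoplasmic reticulum, with 6.41 and 8.04, were also among the 10 strongest. The number rests on the replicates of activated cells: where 1 activated library alone defined the condition it was 903 without activated replicate 1 and 462 without activated replicate 2. It was 81 without control replicate 1 and 104 without control replicate 2.

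The 5 regions listed only in control cells were weak. LRRC56 had 5.36 and 5.57 tags in control replicates 1 and 2, NBPF1 had 5.36 and 4.97, PPP4R3B, a subunit of protein phosphatase 4, had 5.36 and 4.77, MYO10, an unconventional myosin, had 5.36 and 3.98, and PAG1, a membrane adaptor, had 4.91 and 3.78. Only NBPF1 had a highest fold over background (2.11) under 4. When only peaks that reached 4-fold were used in every list, 67 regions were activated-only and 1 was control-only, and these can include regions whose weaker peaks in the other condition were dropped. Where 1 control library alone defined the condition the number was 602 without control replicate 1 and 314 without control replicate 2, and it was 6 without activated replicate 1 and 8 without activated replicate 2. Within replicate 1, 116 of the 222 regions had a peak in the activated list only and 18 in the control list only, and within replicate 2 these were 91 and 18. Of the 349 repeat-called regions outside genes the same counts were 137 and 22 in replicate 1 and 104 and 54 in replicate 2. Where both lists of a replicate number had a peak, tags were higher after activation at 46 of 67 regions in replicate 1 (median log2 difference 0.33) and at 96 of 108 in replicate 2 (0.57). Outside genes they were higher at 69 and lower at 85 of 155 regions in replicate 1 (-0.02), and higher at 104 of 128 in replicate 2 (0.49). The difference between inside and outside was not tested.

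The regions were spread along their genes. A strand and a start were known for the genes of 169 of the 222 regions, and the median region lay 17336 bp from the nearest start of its gene, 40.3% of the way along it. The genes had a median length of 91544 bp. In-gene regions called once lay a median of 26422 bp from the nearest start, 44.6% of the way along, in genes of 107593 bp. The centre lay within 1000 bp of a start of its own gene at 21 of the 169 regions (12.4%, exact 95% interval 7.86 to 18.4%), against 80 of 1574 in-gene regions called once (5.08%, 4.05 to 6.29%). Regions are not replicates, and this gap was not tested. With the starts of neighbouring genes included, 23 of the 203 regions on chromosomes with listed starts lay within 1000 bp. The other 2 were NRL at PCK2 and ARHGAP9 at MARS1. The 203 include regions whose own gene had no listed start, which only a neighbour's start could count. SHMT2, 470 bp from an end of its gene, was such a region. The 19 regions on chromosome 8, among them EIF4EBP1 at 990 bp from a gene end, could not be counted. The number can therefore be too low. Exons and introns were not distinguished.

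Some of the 21 regions near a start of their own gene lay in genes of the lists above. These were ASNS, SLC1A5, SLC3A2, SLC38A1, SLC38A2, PHGDH, MTHFD2, XBP1, EPRS1, NARS1, TARS1 and YARS1. The region in YARS1 was measured from the start of S100PBP, whose span it shares, since YARS1 had no listed start. The lists were chosen with earlier results of these data known, and list genes were not counted among regions farther from a start. The other members of the 21 were TMEM9, SIAH1, TXNDC12, HAX1, LOC107984449, PYROXD1, IRAK1BP1, DENND1B and SLC16A4. Of the 21, 3 had a peak in all 4 lists, 7 were activated-only and 0 control-only, against 38, 47 and 4 of the 148 regions farther from the start. SARS1 and GARS1 lay just outside, 1038 and 1270 bp from their starts.

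**Figure D4:**
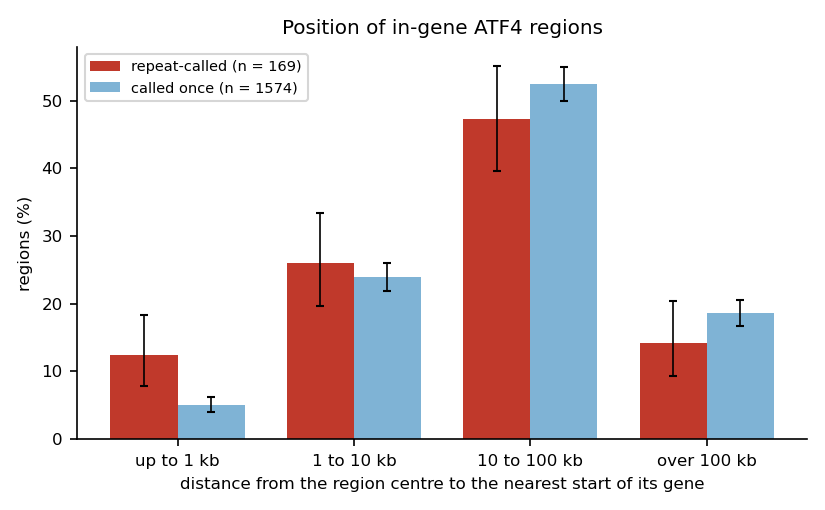
Share of in-gene ATF4 regions (vertical axis, %) by distance from the region's centre to the nearest start of its gene, for repeat-called regions and regions called once, with exact 95% binomial intervals. The shares differ most within 1 kb of the start, at 12.4% against 5.08%.

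Of 217 genes with a region, 8 held more than 1. FANK1 held 3, and OXR1, ATXN1, RUNX2, YARS1, MTHFD2, STX8 and LOC101927345 held 2 each. The regions of OXR1, a protein of oxidation resistance, had peaks in all 4 lists at both sites, with 18.4 and 11.5 tags in activated replicates 1 and 2, against 8.93 and 7.75 in control replicates 1 and 2 at the stronger. The second had 8.42 and 8.24 tags in activated cells, against 7.14 and 5.17 in control cells. The stronger passed the test (log2 change 0.74, limma adjusted p = 0.0397) and the weaker did not (0.40, limma adjusted p = 0.217). RUNX2, a bone transcription factor, had 10.4 and 7.03 tags in activated cells, against 6.70 and 5.77 in control cells at the stronger, and 7.64 tags in activated replicate 2 and 5.36 in control replicate 1 at the other. In FANK1 the 3 regions had 4.81 to 5.21 tags in activated replicate 1 and 5.57 to 5.77 in control replicate 2, with no peak in the other lists, and highest folds over background from 2.05 to 3.76. Another weak region lay beside them in DHX32 (2.51-fold). By chromosome, 19 of the 222 regions (8.56%) and 14.5% of the in-gene regions called once lay on chromosome 8, which holds 3.57% of protein-coding genes. The number of copies of chromosome 8 in these cells was not tested.

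Whether ATF4 inside genes sits where MYC binds was described with the 6313 MYC regions that both MYC lists of activated cells called. Of the 222 regions, 43 overlapped such a MYC region (19.4%, exact 95% interval 14.4 to 25.2%), against 12.4% of all 571 repeat-called ATF4 regions. The ones with most ATF4 were SLC43A1, TBC1D16, SLC7A5, EIF4EBP1 and ATXN1. MYC had 4.75 and 10.2 tags in its replicates 1 and 2 at SLC43A1, and 4.28 and 6.59 tags at SLC7A5. The value of 4.28 tags was the lowest of the 43 in replicate 1, and SLC7A5 shared it with other regions. MYC had 9.98 and 22.6 tags at TBC1D16, 11.9 and 23.9 at EIF4EBP1, and 4.75 and 5.59 at ATXN1. The median MYC tags were 6.18 and 9.78 over the 43 regions and 6.18 and 8.98 over all 6313 MYC regions, in replicates 1 and 2. Centres of the ATF4 and MYC regions were within 100 bp of each other at 33 of the 43, with a median of 54 bp.

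Overlap with MYC was found in every class of regions with peaks in both activated lists. It was 14 of 51 (27.5%, exact 95% interval 15.9 to 41.7%) for regions in all 4 lists, 11 of 43 (25.6%, 13.5 to 41.2%) for those with 1 control list, and 15 of 71 (21.1%, 12.3 to 32.4%) for activated-only regions. It was 2 of 48 (4.17%, 0.509 to 14.3%) for regions of 1 activated and 1 control list, 1 of 4 for those with both control lists and 1 activated list, and 0 of 5 for control-only regions, which allows a share of up to 52.2%. MYC was profiled only in activated cells. Of the 14 regions in all 4 lists that lay on MYC, 8 rose by the limma test, against 13 of the 37 not on MYC, with median log2 changes of 0.70 and 0.49, and the difference was not tested. Without MYC replicate 1 the share of the 222 regions on a MYC region was 41.0%, and without MYC replicate 2 it was 19.8%, since the single list left then defined the MYC regions.

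**Figure D5:**
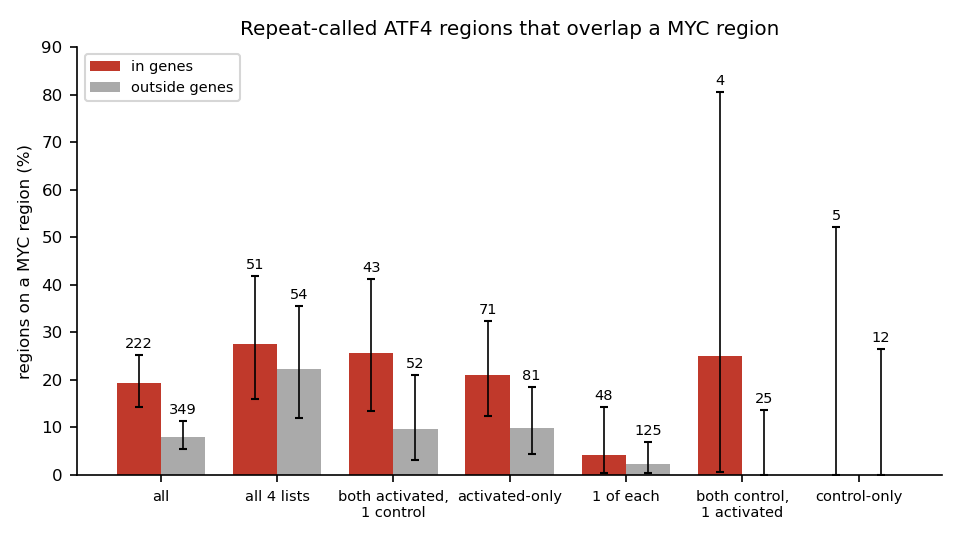
Share of repeat-called ATF4 regions that overlap a MYC region of both MYC lists (vertical axis, %), inside genes (red) and outside genes (grey), by the ATF4 lists with a peak. Whiskers are exact 95% binomial intervals and the number above each is the number of regions; inside genes the 3 classes with peaks in both activated lists lie between 21.1% and 27.5%.

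Outside protein-coding genes 28 of 349 regions lay on a MYC region (8.02%, exact 95% interval 5.40 to 11.4%), a gap that was not tested, and peaks close to background were unevenly split. No peak reached 2-fold over background at 2 of the 222 regions inside genes, DUX4 and MUC6, and at 81 of the 349 outside. Among regions of at least 4-fold, a limit chosen after seeing the data, 36 of 186 inside genes (19.4%, 13.9 to 25.8%) and 25 of 184 outside (13.6%, 8.99 to 19.4%) lay on a MYC region, and these intervals overlap. At the regions of all 4 lists, the median log2 change was 0.60 inside genes and 0.52 outside, with 21 of 51 and 18 of 54 past the threshold.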

How the data were processed

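Each of the 4 ATF4 and 2 MYC libraries had 1 peak list, called per library. The submitters' processing notes name Bowtie 0.12.9, HOMER and hg38; no settings are given in the sources used here. Per the file headers, the authors gave normalized tags as a signal per 10 M. Total tags are a raw count in replicate 1 and a signal matched to the depth of the background in replicate 2, per the file headers. Per the file headers, the focus ratio is a fraction, and the fold is a ratio over the background library, which the headers do not name. Depth was read from the steps of normalized tag counts, where 100% of low values were whole tags within 0.1, and gave the deposited counts of replicate 1 exactly.

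Peaks were merged at 1 bp of overlap, with the strongest peak per library taken as the value of a region. Gene spans and promoter windows were those of RefSeq on GRCh38.p14, where 15843 of 20056 protein-coding genes had a listed start. Limma 3.58.1 with a trend was applied to log2(tags + 1) over the 105 regions with a peak in every list, without a filter on low values, after a test on simulated data, and edgeR 4.0.16 to whole tags as an alternative. Intervals are exact (Clopper-Pearson) at 95% and cover counting error only. The labels do not say whether replicates were separate cultures, so p-values measure only the spread between these libraries. Limma draws the spread of a region toward that of regions with like tags. Named regions were the 10 strongest in all 4 lists, the 10 largest changes past the threshold, the 10 strongest activated-only and 5 strongest control-only regions, the genes of the lists, the 5 strongest on MYC and the 5 genes with most regions; others, and the sequences of list genes outside the 10 strongest or largest, were picked once their values had been seen. A region that this rule names is not reported here. The members and lists were chosen with earlier results of these data known.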

Additional observations from a re-analysis of the deposited data

How the results depend on the processing

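The number of regions, 222, was 165 to 304 under other merging, peak limits and definitions of a gene, and 120 to 202 with 1 ATF4 library left out. The number of activated-only regions, 71, was 59 to 92 under those settings and 81 to 903 with a library left out, and that of control-only regions, 5, was 3 with merging at 50% of the shorter peak, 1 when only peaks that reached 4-fold were used, 3 with peaks from the common lowest tag count up, and 6 to 602 with a library left out. Regions that rose numbered 0 with a replicate block (20 at an unadjusted limma p under 0.05), 0 with each library centred on its median, 11 per 200 bp of peak width and 0 with any library left out (the lone library was assumed to vary like the other group), against 21, and 19 to 27 under the remaining alternatives. Regions that fell numbered 5 with centring and 0 under every other alternative run. Nothing in the labels says that a replicate number marks a shared culture, so the block was run as an alternative. Depth did go with the replicate number. The deviations of same-numbered libraries from their group means correlated at 0.098 across 105 regions. That correlation cannot show a shift that all regions of a library share, so it does not decide whether the block is needed. The share on a MYC region was 41.9% with a MYC peak in either list and 19.8 to 41.0% with a MYC library left out, against 19.4%. It was 14.9% with centres within 100 bp, 15.8% with 50% of the ATF4 region covered, and 16.7% with MYC peaks of at least 4-fold. The difference in regions called per library, 85.5 on average, was 98 in replicate 1, 73 in replicate 2 and 69 with peaks from the common lowest tag count up. The cause of these changes was not tested, beyond the smaller number of libraries where one was left out. The lowest listed peaks of replicate 1 lay at 3.21 tags in activated and 4.46 in control cells, so weaker regions could be listed in activated cells alone.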
